A study of Homo sapiens with 23 samples.

Results

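The factors that transcribe the replication-dependent histone genes and cut the 3′ ends of their transcripts were followed through the RNA-seq of A549 cells depleted of *THUMPD3*. They were taken as a fixed list of 7 genes, *NPAT*, *CASP8AP2*, *SLBP*, *LSM10*, *LSM11*, *ZNF473* and *ERI1*, named for their roles in the histone locus body and in histone pre-mRNA processing. The rule used no measured value, although the list was drawn up with earlier results of these data known. All 7 were listed among the 61806 genes of the first count table and among the 42901 genes of the deep count table, and all 7 passed the filter on low counts in every comparison. A549 is a human lung adenocarcinoma line with epithelial features, and THUMPD3 is an RNA methyltransferase that places m2G in tRNA. The first table held 17 libraries: siD3 #3 (n = 3) with siControl (n = 2), both harvested 5 days after treatment began, and shD3 #1 (n = 3) with sh1Control (n = 3) and shD3 #4 (n = 3) with sh4Control (n = 3), harvested after 6 days. The deep table held 6 further libraries, deep shD3 #1 (n = 3) and deep sh1Control (n = 3), for which the day of harvest was not given in the sources used here. siD3 #3 is a transiently transfected siRNA, and the shRNAs were carried by lentiviral pLKO-Tet-On vectors that are induced with doxycycline and selected with puromycin. The study's methods set treated against untreated samples within each knockdown type, and call the shD3 #1 controls untreated shD3 #1 samples. They do not state that untreated means without doxycycline. If it does, doxycycline goes with the knockdown in every shRNA comparison, and their effects cannot be told apart. The sources do not say which siRNA the siControl libraries received, and no further allele or agent is given for any group.

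Replication-dependent histone genes are the only animal genes whose mRNAs end without a poly(A) tail. Their transcription is driven at the histone locus body, where NPAT, a substrate of cyclin E-CDK2, and FLASH, the product of *CASP8AP2*, are concentrated. The nascent transcript carries a stem-loop that is bound by SLBP and a downstream element that pairs with the U7 snRNA, whose Sm ring contains LSM10 and LSM11 in place of a pair of spliceosomal Sm proteins, and cleavage between these elements makes the mature end. ZNF473, also called ZFP100, joins SLBP to the U7 snRNP. ERI1 is a 3′ exonuclease that binds the same stem-loop and trims the histone mRNA when it is degraded at the end of S phase. In bulk RNA, fewer cells in S phase and less histone mRNA or histone factor mRNA per cell cannot be told apart.

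The libraries of the first table held between 9854294 and 22101059 counts, the lowest being shD3 #1 replicate 3. Of these counts, 21.9% to 32.2% fell on *MT-RNR2*, a mitochondrial rRNA gene. Its share was 25.5% to 31.2% in siD3 #3 against 21.9% and 24.1% in siControl, but 24.6% to 25.3% in shD3 #1 against 27.3% to 29.1% in sh1Control. In the deep libraries the top gene was *COX1*, at 3.03% to 3.98% of counts. The deep controls held 51101905 to 59974740 counts and the deep knockdowns 27285889 to 35458367, so that depth differed with the condition there. No knockdown library reached the *THUMPD3* level of any of its own controls. The level was 51.1% of control in shD3 #1 (log2 fold change -0.97, SE 0.0668), 31.4% in shD3 #4 (-1.67, SE 0.0722), 17.1% in siD3 #3 (-2.54, SE 0.104) and 49.6% in deep shD3 #1 (-1.01, SE 0.0575). All 8 epithelial markers listed for A549 had counts in each first library. *KRT7*, *KRT8*, *KRT18*, *AKR1B10* and *ALDH1A1* were at 917 cpm or more, *AKR1C1* at 139 cpm or more and *KRT19* at 19.9 cpm or more, while *EPCAM*, an epithelial adhesion gene, was between 1.99 and 20.4 cpm. In siD3 #3 replicate 3 the 8 markers summed to 9494 cpm, against 17107 and 17359 cpm in the other siD3 #3 libraries, so that this library stood apart. Without it the same number of factors, 4, was called in siD3 #3, with log2 fold changes of -1.20 for *SLBP*, -0.80 for *NPAT*, -0.98 for *CASP8AP2* and -0.71 for *ERI1*. Of 7 markers of other cells, *CD3E* had no count in the first table and *PTPRC* at most 4 counts in a library. *COL3A1* was the highest there, with counts in every library, from 0.159 to 6.46 cpm. Only 1 of the 7 markers was tested in shD3 #1 and in shD3 #4, and it was called higher in both, at log2 fold changes of 3.45 and 1.77. The summed level of the 7 was 0.265 to 1.08 cpm in the first controls and 1.37 to 6.92 cpm in the first knockdowns, and 45.3 to 49.0 cpm against 93.7 to 101 cpm in the deep libraries, where nearly all of it was *CD68*. In the first libraries, which include the same shRNA, *CD68* had at most 4 counts, or 0.394 cpm. Its deep level thus went with the count table, and the deep sum is not read as a measure of other cells. The part of these markers in the results below was not tested.

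Of the 7 factors, 4 fell in siD3 #3, 1 fell and 1 rose in shD3 #1, 1 fell in shD3 #4 and 1 fell in deep shD3 #1. A gene was called here where edgeR's quasi-likelihood test gave a Benjamini-Hochberg adjusted p under 0.05 over all genes tested together with a change of at least 1.5-fold, which is 0.585 on the log2 scale. Beside the 4 of 7 factors in siD3 #3, 9.42% of the 17032 genes tested were called lower and 12.5% higher. In shD3 #1, 14.6% of 16456 genes were called lower and 14.5% higher, so that 1 factor in each direction is close to the background. In shD3 #4, 4.50% of 16493 genes were lower and 8.00% higher, and in deep shD3 #1, 14.1% of 18763 genes were lower and 15.0% higher. The median log2 fold change of the 7 factors was -0.63 in siD3 #3, -0.18 in shD3 #1, -0.15 in shD3 #4 and 0.12 in deep shD3 #1, against 0.03, -0.01, 0.01 and -0.02 for all genes tested.

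**Figure D1:**
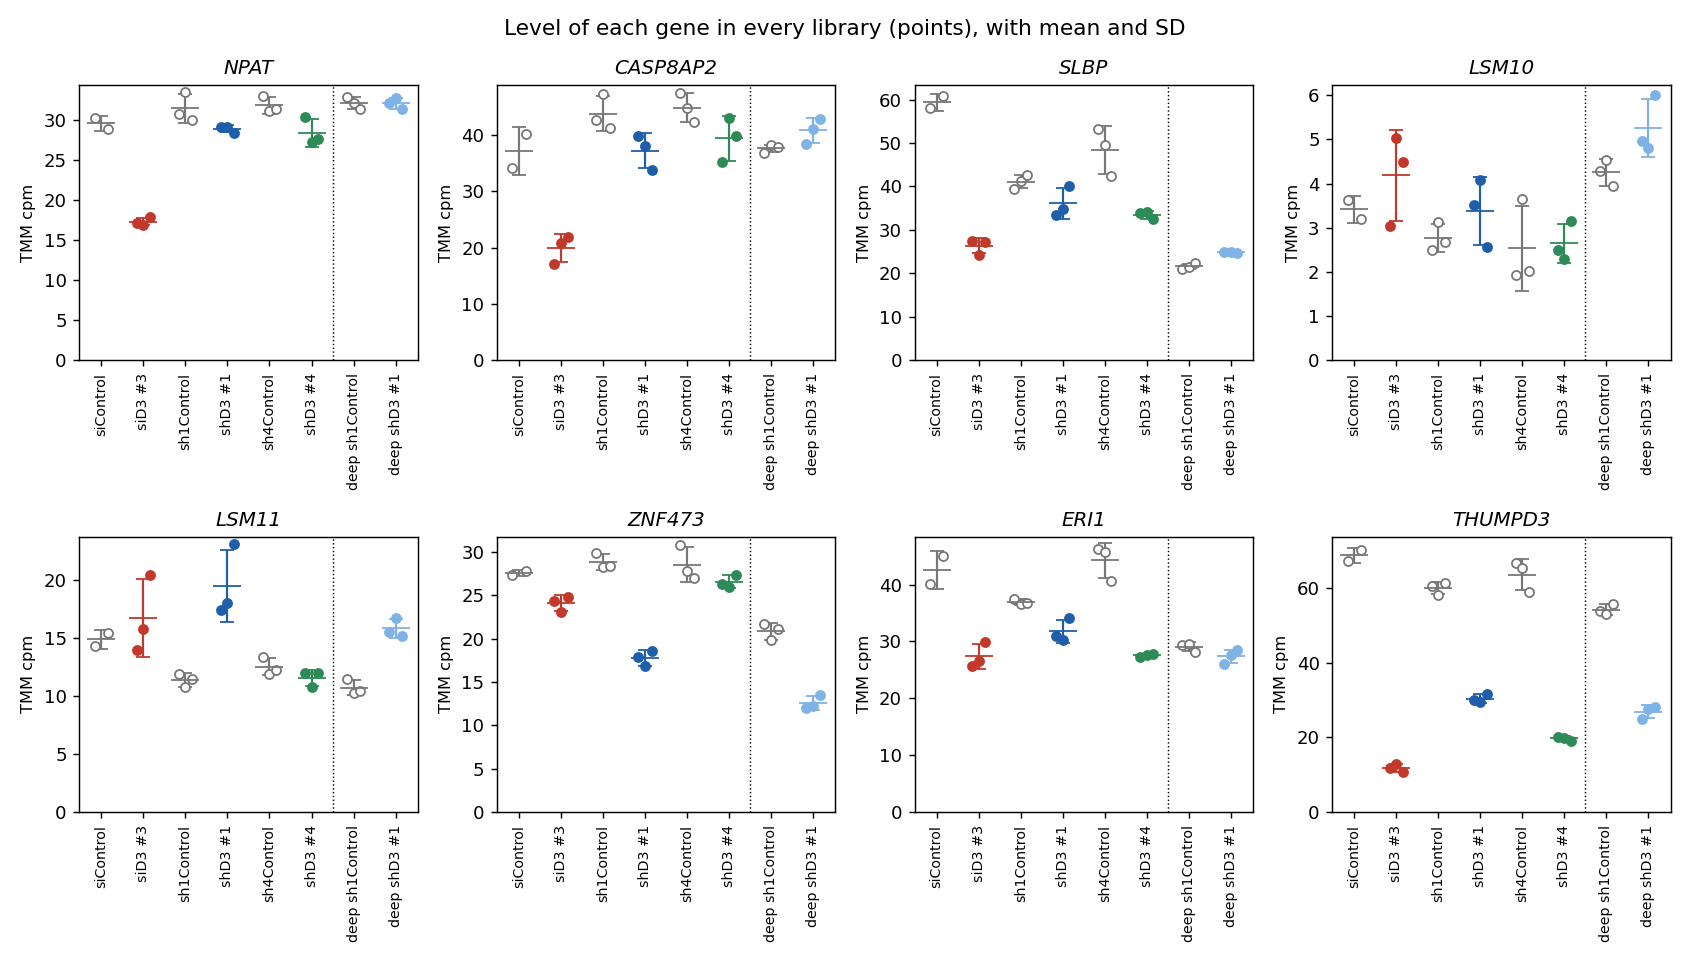
Each panel plots the TMM-normalised level of 1 gene in cpm (y axis, linear, from 0) in each of the 23 libraries (points) by group (x axis), with controls as open grey points, knockdowns filled, and the mean with its SD as bars. Libraries right of the dotted line come from the deep table, whose levels are not on the same footing as the first, and in siD3 #3 *NPAT*, *CASP8AP2*, *SLBP* and *ERI1* lie below both siControl libraries while *LSM10* and *LSM11* overlap them.

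Set per kilobase of merged exon, *SLBP* was the most abundant of the factors. In the 8 first controls it was at 25.7 ± 4.34 cpm per kb (SD), and no other factor reached its lowest control value of 21.0. *ERI1* followed at 6.44 ± 0.641 cpm per kb and *CASP8AP2* at 5.22 ± 0.526, and their ranges touched, from 5.73 to 7.25 and from 4.19 to 5.81. *NPAT* at 4.13 ± 0.205 and *ZNF473* at 4.12 ± 0.190 cpm per kb did not differ beyond their spread. The same held for the U7 snRNP subunits, *LSM11* at 1.94 ± 0.239 and *LSM10* at 1.89 ± 0.444 cpm per kb. *LSM10* rested on 26 to 88 counts in a first library and had the widest intervals, whereas *SLBP* rested on 408 to 1036.

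*NPAT* (ENSG00000149308, chromosome 11, 108157215 to 108222638, minus strand, GRCh38), the coactivator that switches on histone genes at the start of S phase, fell in siD3 #3. The siD3 #3 libraries held 17.1, 16.9 and 17.8 cpm, and the siControl libraries 30.2 and 28.9 cpm. All 3 knockdown libraries lay below both controls, at 58.7% of control (log2 fold change -0.77, SE 0.0994, adjusted p = 0.00104). With either shRNA the difference was small. Levels were 29.1, 29.1 and 28.3 cpm in shD3 #1 against 30.7, 33.5 and 30.0 in sh1Control, and 30.3, 27.2 and 27.5 cpm in shD3 #4 against 33.0, 31.1 and 31.3 in sh4Control. Neither pair of groups overlapped, but the log2 fold changes of -0.10 (95% interval -0.25 to 0.05, adjusted p = 0.242) and -0.15 (adjusted p = 0.104) missed the threshold. In the deep libraries the groups overlapped, with 32.1, 32.7 and 31.4 cpm in the knockdown and 32.8, 32.1 and 31.3 in the control, and the 95% interval of the log2 fold change ran from -0.11 to 0.11.

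*CASP8AP2* (ENSG00000118412, chromosome 6, 89829894 to 89874436, plus strand) encodes FLASH, which holds the U7 snRNP and the cleavage factors together, and like *NPAT* it was called in siD3 #3 alone. It was at 17.2, 20.8 and 21.8 cpm in siD3 #3 and at 34.2 and 40.2 cpm in siControl. The groups were apart, and the gene fell to 53.8% of control (log2 fold change -0.89, SE 0.135, adjusted p = 0.00214). In shD3 #1 it held 39.7, 38.0 and 33.7 cpm against 42.7, 47.3 and 41.3 in sh1Control, all below the controls, with a log2 fold change of -0.21 that passed the adjusted p of 0.0320 but not the 1.5-fold limit. In shD3 #4 it held 35.2, 43.1 and 39.8 cpm against 47.4, 44.8 and 42.3, which overlapped (log2 fold change -0.17, adjusted p = 0.0651). The deep libraries went the other way in sign, with 38.5, 41.1 and 42.8 cpm in the knockdown above 36.8, 38.1 and 37.9 in the control, at a log2 fold change of 0.12 that missed the threshold (adjusted p = 0.0702).

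The promoters of the factors that fell together in siD3 #3 are shown because their sequence was not used to choose them. Promoters of 5 of the 7 genes were taken from RefSeq (GRCh38.p14). Those of *ZNF473* and of *ERI1*, which was also called in siD3 #3, were not examined. The 250 bases before the RefSeq start are printed 5′ to 3′ on the strand of the gene, with matches in capitals to a CCAAT box (CCAAT) or to an E2F-type motif (TTCCCGC or TTCGCGC, and also TTGCCGC or TTGGCGC), each searched on both strands.
NPAT (chr11:108222639-108222888, - strand): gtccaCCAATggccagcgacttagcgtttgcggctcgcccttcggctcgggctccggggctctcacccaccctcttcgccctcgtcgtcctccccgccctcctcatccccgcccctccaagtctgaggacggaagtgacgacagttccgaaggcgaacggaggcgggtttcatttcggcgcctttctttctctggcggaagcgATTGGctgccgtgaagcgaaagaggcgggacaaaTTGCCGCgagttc
CASP8AP2 (chr6:89829630-89829879, + strand): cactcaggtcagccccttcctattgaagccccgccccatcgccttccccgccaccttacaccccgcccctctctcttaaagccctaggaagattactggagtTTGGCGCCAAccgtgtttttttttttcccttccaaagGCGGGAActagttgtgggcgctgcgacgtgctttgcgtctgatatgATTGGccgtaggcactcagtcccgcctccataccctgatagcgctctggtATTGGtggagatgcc
SLBP (chr4:1712320-1712569, - strand): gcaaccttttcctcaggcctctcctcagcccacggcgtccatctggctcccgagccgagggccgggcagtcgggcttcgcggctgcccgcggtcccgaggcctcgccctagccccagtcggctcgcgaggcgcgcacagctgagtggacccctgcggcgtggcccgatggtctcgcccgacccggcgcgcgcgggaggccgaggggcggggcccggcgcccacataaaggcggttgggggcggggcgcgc
*NPAT* held 1 E2F-type match, 13 bases before the start, and 2 CCAAT matches. *CASP8AP2* held 3 E2F-type matches, of which 2 overlap on opposite strands, and 2 CCAAT matches. *SLBP* held neither, and neither did *LSM11*, while *LSM10* held 1 CCAAT match. Among 35093 RefSeq promoters of the same length, 10.9% held an E2F-type match and 32.0% a CCAAT match. These matches describe the letters in the window and not binding.

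Of 14 other genes listed for histone gene transcription (*HINFP*, *YY1*, the NELF subunits, cyclin E-CDK2 and others), all were tested, 2 fell in siD3 #3, 1 in shD3 #1, and none was called in shD3 #4 or deep shD3 #1. In siD3 #3 these were *CDK2*, the kinase that phosphorylates NPAT, at a log2 fold change of -2.06 (adjusted p = 2.98e-05), and its cyclin *CCNE2* at -2.21 (adjusted p = 0.00220). In shD3 #1 it was *NELFB*, a subunit of the elongation factor NELF, at -0.70 (adjusted p = 4.27e-07). *HINFP*, the histone H4 promoter factor, had the highest mean change of the list, with log2 fold changes of 0.38, 0.03 and 0.32 in siD3 #3, shD3 #1 and shD3 #4, none called. At an unadjusted p under 0.05 alone, 6 of the 14 genes passed in shD3 #4 and 7 in deep shD3 #1, and DESeq2 also called 0 in both. *CDK2* in shD3 #4, for example, had a log2 fold change of -0.41 with an adjusted p of 2.34e-05. Without sh4Control replicate 3, 1 gene of the list was called in shD3 #4, and without deep sh1Control replicate 2 or deep shD3 #1 replicate 3, 1 was called in deep shD3 #1. The list medians were -0.29, -0.07, -0.17 and -0.15 in siD3 #3, shD3 #1, shD3 #4 and deep shD3 #1. Among all genes tested, 9.42%, 14.6%, 4.50% and 14.1% were called lower in these comparisons. The count of 2 of 14 in siD3 #3 was thus close to the background, and the other list counts were not above it. *CCNE2* is also among the S phase genes counted further on.

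*SLBP* (ENSG00000163950, chromosome 4, 1692731 to 1712344, minus strand) encodes the protein that stays on the stem-loop of a histone mRNA from its cleavage to its decay. It had the lowest siD3 #3 fold change of the 7. Its levels were 27.5, 24.3 and 27.3 cpm in siD3 #3 and 57.9 and 60.8 cpm in siControl, and it fell to 44.6% of control (log2 fold change -1.17, SE 0.0961, adjusted p = 0.000112). In shD3 #4 it was at 33.8, 34.1 and 32.5 cpm, below 53.2, 49.6 and 42.4 cpm in sh4Control. These groups did not overlap, and the level of 70.0% of control passed the adjusted p (log2 fold change -0.52, adjusted p = 5.47e-06) but not the 1.5-fold limit. Without sh4Control replicate 3, the lowest of its controls, the log2 fold change was -0.61 and the gene was called. In shD3 #1 the levels of 33.4, 34.7 and 40.1 cpm overlapped those of sh1Control, 39.5, 41.2 and 42.6 cpm (log2 fold change -0.18, adjusted p = 0.0600). In the deep libraries the same shRNA gave 25.0, 25.0 and 24.6 cpm, all above the controls at 21.1, 21.4 and 22.3 cpm, with a log2 fold change of 0.20 that passed the adjusted p of 0.00474 but not the 1.5-fold limit.

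The stem-loop that SLBP and ERI1 bind was found in the genome 22 to 67 bases past the stop codon of all 69 replication-dependent histone genes listed, on the strand of the gene and at a separate place for each. The search allowed either pyrimidine at some bases of the left arm of the stem and at 1 base of the loop. It allowed either purine at some bases of the right arm, and any base at the last position of the loop. The stem-loop was fixed at its other bases. The stem-loop came in 10 forms, of which the commonest was held by 40 genes. The stem-loop is printed with 5 bases on either side (GRCh38), stem and loop in capitals, for the 5 histone genes with the largest mean change among those called in all 3 first comparisons, whose values are given further on.
H4C13 (chr6:27873148-27873173, - strand): tcaaaGGCCCTTCTCAGGGCCaccca
H3C12 (chr6:27890315-27890340, - strand): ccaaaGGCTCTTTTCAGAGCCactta
H2BC10 (chr6:26273387-26273412, + strand): ccaaaGGCTCTTCTAAGAGCCaccca
H1-5 (chr6:27866792-27866817, - strand): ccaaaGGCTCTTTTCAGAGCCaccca
H3C7 (chr6:26250140-26250165, - strand): ccaaaGGCTCTTTTCAGAGCCaccaa
*H1-5*, *H3C12* and *H3C7* share the commonest form. Counted from 1 at the 5′ base of the stem, *H2BC10* differs from that form by T8C and C10A, and *H4C13* by T4C, T8C and A13G.

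SLBP protein is made and destroyed within each cell cycle, and 9 genes listed for its turnover were tested. In siD3 #3, 3 of the 9 fell, in shD3 #1 4 fell, in shD3 #4 1 fell, and in deep shD3 #1 1 rose. The background over all genes tested was 9.42%, 14.6% and 4.50% called lower in the first 3 of these, and 15.0% called higher in deep shD3 #1. The list medians were -0.25 in siD3 #3, 0.02 in shD3 #1, -0.15 in shD3 #4 and 0.01 in deep shD3 #1. The calls thus came from a part of the list and do not describe the turnover genes as a whole. *CCNA2*, cyclin A2, was the one called in all 3 first comparisons, at log2 fold changes of -3.65 (adjusted p = 1.62e-05) in siD3 #3, -1.14 (adjusted p = 7.04e-09) in shD3 #1 and -0.64 (adjusted p = 8.57e-08) in shD3 #4. In deep shD3 #1 it was at -0.11 (adjusted p = 0.0550). *CDK1*, its partner kinase, fell by 3.39 in siD3 #3 and by 0.97 in shD3 #1 on the log2 scale, and *CCNF*, the F-box protein that marks SLBP for degradation in G2, fell by 2.69 and by 0.98. *FEM1C*, a substrate receptor of a ubiquitin ligase, rose in deep shD3 #1 at a log2 fold change of 0.59 (adjusted p = 2.12e-07), close to the 1.5-fold limit. The *CCNA2* call in shD3 #4 was lost without sh4Control replicate 1, and the *FEM1C* call in the deep libraries without deep sh1Control replicate 1 or deep shD3 #1 replicate 2.

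The U7 snRNP is represented by its subunits *LSM10* and *LSM11* and by *ZNF473*, which joins it to SLBP, and none of these was called in siD3 #3 or shD3 #4. The U7 snRNA is encoded by *RNU7-1* and is shown with its noncanonical Sm site, the part on which the ring with LSM10 and LSM11 forms, in capitals (GRCh38, 63 bases).
RNU7-1 (chr12:6943816-6943878, + strand): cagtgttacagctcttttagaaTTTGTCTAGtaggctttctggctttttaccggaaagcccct
*RNU7-1* had no count in the 17 first libraries, and a count of 0 allows for up to 3 counts in a library. The deep controls held 7, 6 and 4 counts and the deep knockdowns 1, 0 and 1, so that no level is read from these counts.

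*LSM10* (ENSG00000181817, chromosome 1, 36391238 to 36397908, minus strand), which encodes one of the pair of U7-specific ring subunits, was not called in any comparison. It held 3.04, 5.04 and 4.48 cpm in siD3 #3 against 3.64 and 3.20 in siControl, 3.51, 4.08 and 2.56 in shD3 #1 against 2.50, 3.12 and 2.68 in sh1Control, and 2.50, 2.28 and 3.14 in shD3 #4 against 1.94, 3.65 and 2.01 in sh4Control. The groups overlapped in each of these, and the 95% intervals of the log2 fold change were -0.31 to 0.88, -0.05 to 0.77 and -0.40 to 0.51, which leave room for a 1.5-fold rise in siD3 #3 and shD3 #1. In the deep libraries it was at 4.95, 4.79 and 6.01 cpm, above 4.28, 4.54 and 3.93 cpm, with a log2 fold change of 0.31 (adjusted p = 0.0363) under the 1.5-fold limit.

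*LSM11* (ENSG00000155858, chromosome 5, 157743712 to 157760709, plus strand), the U7-specific subunit to which FLASH binds, rose in shD3 #1. It was at 17.5, 18.0 and 23.1 cpm in shD3 #1 and at 11.9, 10.8 and 11.5 cpm in sh1Control. The groups did not overlap, and the level was 1.71-fold that of control (log2 fold change 0.77, SE 0.109, adjusted p = 1.67e-05). The highest value came from shD3 #1 replicate 3, the shallowest library, and the gene was still called without it. In deep shD3 #1 the levels of 15.6, 16.8 and 15.2 cpm again lay above those of the control, 11.5, 10.3 and 10.5 cpm. There the log2 fold change of 0.56 (adjusted p = 1.41e-05) lay just under the 1.5-fold limit, and it passed that limit without deep sh1Control replicate 1 (0.61) or without deep shD3 #1 replicate 3 (0.59). Neither of the other knockdowns separated the groups, with 13.97, 15.8 and 20.5 cpm in siD3 #3 around 14.3 and 15.5 in siControl (adjusted p = 0.488), and 12.0, 10.8 and 12.0 cpm in shD3 #4 against 13.4, 11.9 and 12.3 in sh4Control (adjusted p = 0.452).

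*ZNF473* (ENSG00000142528, chromosome 19, 50025714 to 50053414, plus strand), the bridge between SLBP and the U7 snRNP, fell with shD3 #1 in both tables. It was at 17.9, 16.8 and 18.6 cpm in shD3 #1 and at 29.9, 28.2 and 28.4 cpm in sh1Control, and at 12.0, 12.2 and 13.5 cpm in deep shD3 #1 against 21.6, 19.8 and 21.1 cpm in deep sh1Control. In neither table did the groups overlap. The level was 62.0% of control in the first libraries (log2 fold change -0.69, SE 0.0753, adjusted p = 1.09e-06) and 60.4% in the deep ones (-0.73, SE 0.0703, adjusted p = 4.47e-07). In siD3 #3 it was at 24.4, 23.01 and 24.8 cpm, just below 27.3 and 27.8 cpm (log2 fold change -0.19, adjusted p = 0.169), and in shD3 #4 the groups overlapped, with 26.3, 25.9 and 27.4 cpm against 30.8, 27.8 and 26.98 cpm (-0.09, adjusted p = 0.367). The gene shares 7867 bases with an antisense lncRNA, 233 bases with *VRK3* on the opposite strand and 2826 bases with *ZNF473CR* on its own strand, and as the strand setting of the counting is not given in the sources used here, reads of these transcripts cannot be told apart from its own.

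**Figure D2:**
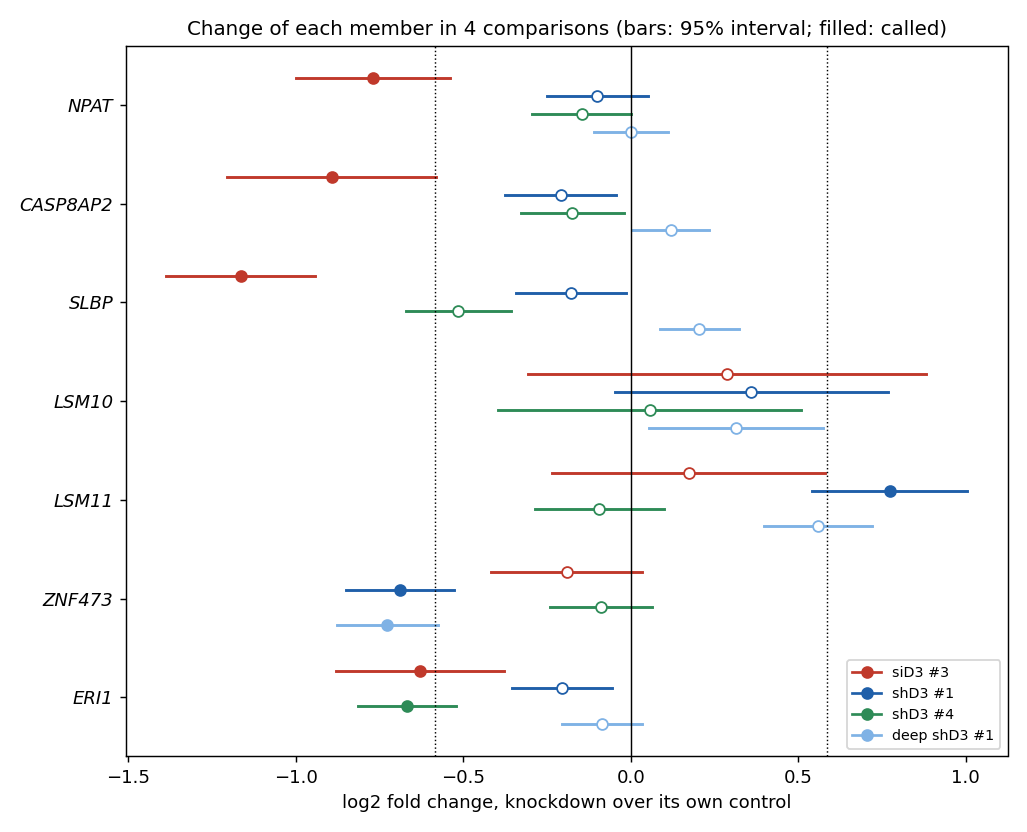
The x axis gives the log2 fold change of each factor (rows) in each knockdown over its own control, with bars for the 95% interval, filled points where the gene was called and dotted lines at the 1.5-fold limit. *NPAT*, *CASP8AP2* and *SLBP* are called in siD3 #3, *ERI1* in siD3 #3 and shD3 #4, *LSM11* in shD3 #1, and *ZNF473* in shD3 #1 of both tables.

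The rest of the cleavage machinery was given by 13 genes, *RNU7-1*, the Sm proteins of the U7 ring and the cleavage factors, of which 12 were tested. In siD3 #3 5 fell, namely *SNRPB*, *SNRPE*, *SNRPF* and *SNRPG*, all Sm proteins that the spliceosomal snRNPs also carry, and *CPSF3*, the endonuclease itself. *SNRPB* was at a log2 fold change of -1.04 (adjusted p = 0.000350) and *CPSF3* at -0.89 (adjusted p = 0.000166). In deep shD3 #1 3 fell, again the Sm genes *SNRPE*, *SNRPF* and *SNRPG*, at -0.75, -0.74 and -0.84. In shD3 #4 *SNRPB* alone fell (-0.62, adjusted p = 2.70e-07), a call lost without sh4Control replicate 1 or shD3 #4 replicate 2. In shD3 #1 edgeR and DESeq2 both called 0, with 6 of 12 at an unadjusted p under 0.05, and *NCBP2*, a subunit of the cap-binding complex with the highest mean change of the list, was closest at 0.56 (adjusted p = 1.06e-05). Without sh1Control replicate 3, shD3 #1 replicate 1 or shD3 #1 replicate 2, 1 gene was called there. The list medians were -0.56 in siD3 #3, -0.18 in shD3 #1, -0.24 in shD3 #4 and -0.28 in deep shD3 #1. The shares of all tested genes called lower were 9.42%, 14.6%, 4.50% and 14.1% in the same order.

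*ERI1* (ENSG00000104626, chromosome 8, plus strand), the exonuclease that shortens histone mRNA ends, was the one factor called lower in more than 1 of the 3 first comparisons. *SLBP*, also called in siD3 #3, missed a call in shD3 #4 by the 1.5-fold limit alone. *ERI1* was at 25.8, 26.6 and 29.9 cpm in siD3 #3 against 40.2 and 45.0 in siControl, and at 27.2, 27.6 and 27.8 cpm in shD3 #4 against 46.3, 45.7 and 40.7 in sh4Control. The groups were apart in both, at 64.6% of control (log2 fold change -0.63, SE 0.109, adjusted p = 0.00395) and 62.9% (-0.67, SE 0.0710, adjusted p = 3.27e-08). The siD3 #3 call rested on single libraries, since the log2 fold change was -0.56 without siControl replicate 2 and -0.58 without siD3 #3 replicate 1, both under the 1.5-fold limit. In shD3 #1 the levels of 31.03, 30.2 and 34.04 cpm lay below 37.5, 36.6 and 36.7 cpm, with a log2 fold change of -0.21 (adjusted p = 0.0197) under the limit. In the deep libraries 26.0, 27.6 and 28.4 cpm overlapped 29.4, 29.6 and 28.1 cpm (-0.09, adjusted p = 0.198).

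Among 14 genes listed for translation and decay of histone mRNA, 6 fell in siD3 #3, 2 in shD3 #1, 1 in shD3 #4 and 1 of 13 tested in deep shD3 #1, and none rose. In siD3 #3 these were *LSM2*, *LSM3*, *LSM4*, *LSM5* and *LSM6*, subunits of the LSM ring that binds oligouridylated histone mRNA and many other RNAs, at log2 fold changes from -1.03 (*LSM2*) to -0.66 (*LSM4*), and *EXOSC10*, an exosome exonuclease, at -0.66. In shD3 #1 they were *LSM4* at -0.70 and *CTIF*, a translation factor, at -0.75. *LSM3* was called in shD3 #4 (-0.62, adjusted p = 2.50e-06) and *LSM7* in deep shD3 #1 (-1.38, adjusted p = 1.26e-07). *XRN1*, the 5′ exonuclease, had the highest mean change, at 0.36, 0.28 and 0.30 in siD3 #3, shD3 #1 and shD3 #4, never past the 1.5-fold limit. The shD3 #4 count was 0 without sh4Control replicate 1, 3 without sh4Control replicate 3 and 2 without shD3 #4 replicate 2 or 3, and the deep count was 3 without deep sh1Control replicate 1 or deep shD3 #1 replicate 3. Among all genes tested, 9.42% were called lower in siD3 #3, 14.6% in shD3 #1, 4.50% in shD3 #4 and 14.1% in deep shD3 #1. The list counts outside siD3 #3 were close to that background.

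The effect differed among the 3 knockdowns for 6 of the 7 factors, all but *LSM10*, by the F test of the interaction in 1 model of the 17 first libraries. By the same test 52.4% of 18672 genes differed. The adjusted p was 8.75e-06 for *SLBP*, 4.69e-05 for *NPAT*, 0.000119 for *ZNF473*, 0.000685 for *CASP8AP2*, 0.00131 for *LSM11* and 0.00236 for *ERI1*, against 0.742 for *LSM10*. For *NPAT*, *CASP8AP2* and *SLBP* the siRNA effect differed from that of both shRNAs. The siD3 #3 effect lay below that of shD3 #1 by -0.65 (SE 0.106) for *NPAT*, -0.67 (SE 0.148) for *CASP8AP2* and -0.97 (SE 0.127) for *SLBP* on the log2 scale, and below that of shD3 #4 by -0.61, -0.71 and -0.64, with adjusted p between 4.50e-06 and 0.00131 over the 6 contrasts. The shRNAs also differed from each other for *SLBP*, shD3 #1 lying 0.34 above shD3 #4 (SE 0.120, 95% interval 0.09 to 0.59, adjusted p = 0.0303). For *NPAT* that difference was 0.04 (95% interval -0.16 to 0.25) and for *CASP8AP2* -0.04 (95% interval -0.32 to 0.24). For *ZNF473* and *LSM11* it was shD3 #1 that stood apart. The *ZNF473* effect in shD3 #1 was -0.60 (SE 0.102, adjusted p = 8.44e-05) from that in shD3 #4, and siD3 #3 and shD3 #4 did not differ detectably (-0.09, 95% interval -0.31 to 0.13). The *LSM11* effect in shD3 #1 was 0.87 (SE 0.181, adjusted p = 0.000617) above that in shD3 #4, and siD3 #3 against shD3 #4 gave 0.28 (95% interval -0.11 to 0.68). For *ERI1*, shD3 #1 lay 0.46 above shD3 #4 (SE 0.108, adjusted p = 0.00180) and siD3 #3 and shD3 #4 differed by 0.05 (95% interval -0.18 to 0.29). For *LSM10* the widest interval was that of siD3 #3 against shD3 #4, from -0.51 to 0.98.

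The median fold change of the histone genes themselves lay below that of the factors that make their mRNAs in each comparison, although in shD3 #4 the values of both overlapped widely, with *ERI1* at -0.67 and *SLBP* at -0.52 beside a histone range of -1.06 to -0.04. Of 69 replication-dependent histone genes, 50 passed the filter on low counts in each first comparison, and 49 of these fell in siD3 #3, 46 in shD3 #1 and 17 in shD3 #4, with none higher. In deep shD3 #1 48 of 55 fell. Over all genes tested, 9.42% were called lower in siD3 #3, 14.6% in shD3 #1, 4.50% in shD3 #4 and 14.1% in deep shD3 #1. The median log2 fold change of the tested histone genes was -3.74 in siD3 #3, -1.28 in shD3 #1, -0.54 in shD3 #4 and -1.21 in deep shD3 #1. There *H2AC18*, *H3C14* and *H4C14* had no count in the knockdown and passed the filter only through the controls, at means of 0.427 to 0.635 cpm, so that they could only fall. Their bounds of -4.32 to -3.74 lie below the median, as their fitted values do, so that using the bounds could not move it. The shD3 #4 count was 9 without sh4Control replicate 1, 10 without shD3 #4 replicate 1, 28 without shD3 #4 replicate 2 and 32 without sh4Control replicate 3. *H4C13*, for example, was at 49.0 ± 7.99 cpm (SD, n = 2) in siControl and 1.35 ± 0.383 (n = 3) in siD3 #3, a log2 fold change of -5.16, and *H3C12* at 124 ± 8.12 and 4.90 ± 1.70 cpm, or -4.65. *H2BC10* was at -4.76, *H1-5* at -4.61 and *H3C7* at -4.54 in siD3 #3, and the same 5 genes lay between -1.63 and -1.27 in shD3 #1 and between -0.85 and -0.65 in shD3 #4. *H3C6* was the tested histone gene with the highest mean change, at -0.34, 0.10 and -0.04, and was called in none. Many histone genes are near-identical copies, and some overlap in the annotation, as *H3C12* does with *H2AC17* on the same strand, so that the split of reads between them is uncertain.

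**Figure D3:**
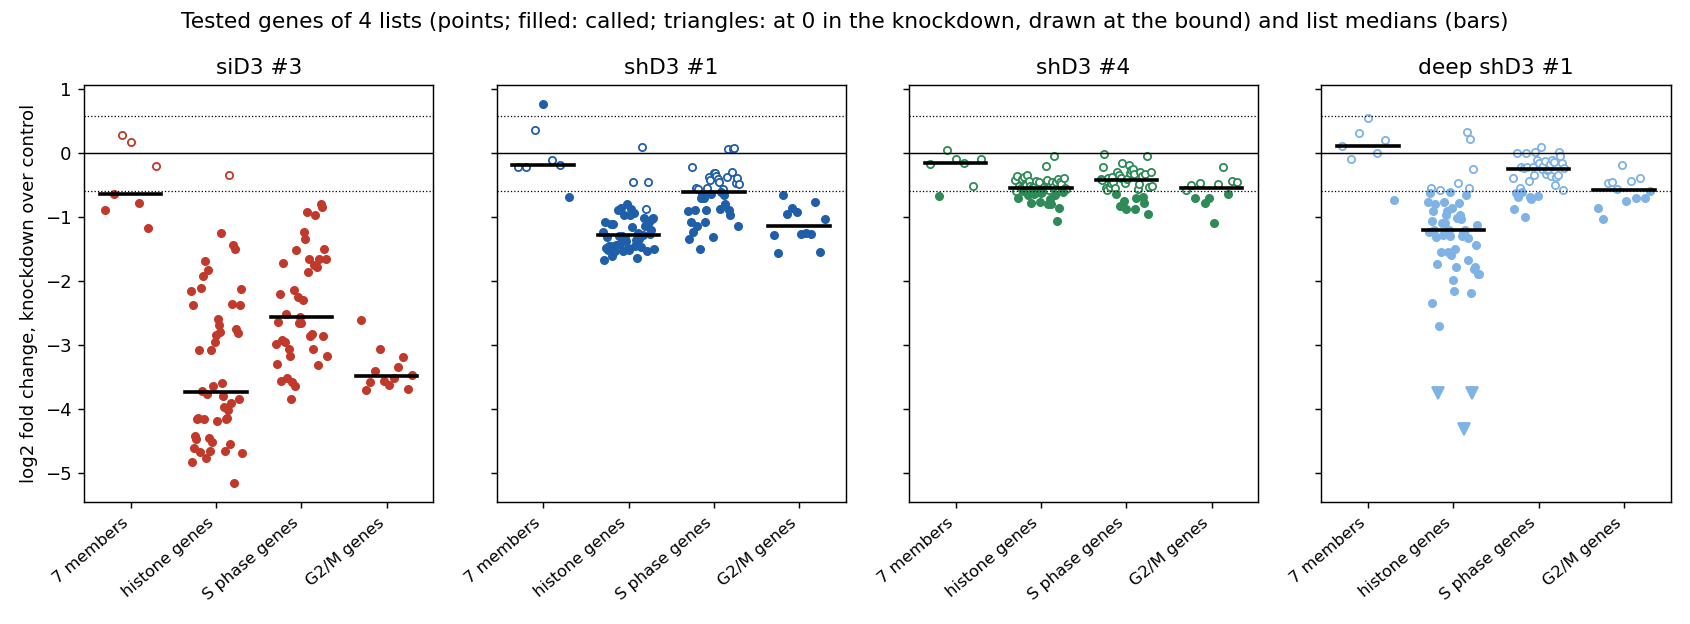
For each comparison (panels) the y axis gives the log2 fold change over control of the tested genes (points, filled where called) in 4 lists (x axis), with the list median as a bar, dotted lines at the 1.5-fold limit, and triangles for 3 histone genes with no count in the knockdown, drawn at their bound. The medians of the 7 factors lie at -0.63, -0.18, -0.15 and 0.12, and those of the histone genes at -3.74, -1.28, -0.54 and -1.21.

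Genes of S phase and of G2/M were counted beside the histone genes. Of 41 S phase genes, 41 fell in siD3 #3, 21 in shD3 #1, 9 in shD3 #4 and 8 of 40 in deep shD3 #1, with medians of -2.56, -0.61, -0.42 and -0.24. Over all genes tested 9.42%, 14.6%, 4.50% and 14.1% were called lower in these comparisons, so that the deep S phase count was not far from its background. Of 12 G2/M genes, 12, 12, 5 and 6 fell, with medians of -3.49, -1.14, -0.54 and -0.57. Their summed levels were 3087 to 3143 cpm in siControl and 713 to 839 cpm in siD3 #3 for the S phase genes, and 2338 to 2405 cpm and 173 to 299 cpm for the G2/M genes. In deep shD3 #1, where the histone median of -1.21 was close to that of shD3 #1, the S phase median was -0.24 and *NPAT*, *CASP8AP2* and *SLBP* had log2 fold changes of -0.00, 0.12 and 0.20. The share of these shifts in the values of the factors was not tested.

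Of the factors, 3 start within 1000 bases of a gene on the opposite strand, *NPAT* beside *ATM* (406 bases), the checkpoint kinase gene, *SLBP* beside *TACC3* (514 bases), which encodes a spindle protein, and *ZNF473* beside *VRK3* (232 bases), which encodes a pseudokinase and overlaps it by 233 bases. *ATM* was at 97.9, 86.2 and 101 cpm in siD3 #3 against 106 and 111 in siControl, below both, with a log2 fold change of -0.19 (adjusted p = 0.177) where *NPAT* was at -0.77. In shD3 #4 it was at 0.26 (adjusted p = 0.00197, under the 1.5-fold limit) where *NPAT* was at -0.15. *TACC3* fell with *SLBP* in siD3 #3, to 11.9, 14.6 and 13.7 cpm from 37.2 and 32.8 cpm (log2 fold change -1.39, adjusted p = 0.000174). It also fell in shD3 #1, to 32.7, 29.6 and 16.6 cpm from 51.5, 47.6 and 46.6 cpm (-0.83, adjusted p = 0.000143), where *SLBP* was not called, and replicate 3 of shD3 #1 was the lowest. In shD3 #4 and deep shD3 #1 *TACC3* had log2 fold changes of -0.25 and -0.38, under the limit. *VRK3* was not called in any comparison, and in shD3 #1 it was at -0.26 (adjusted p = 0.00844) where *ZNF473* was at -0.69. The differences within these pairs were not tested.

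**Figure D4:**
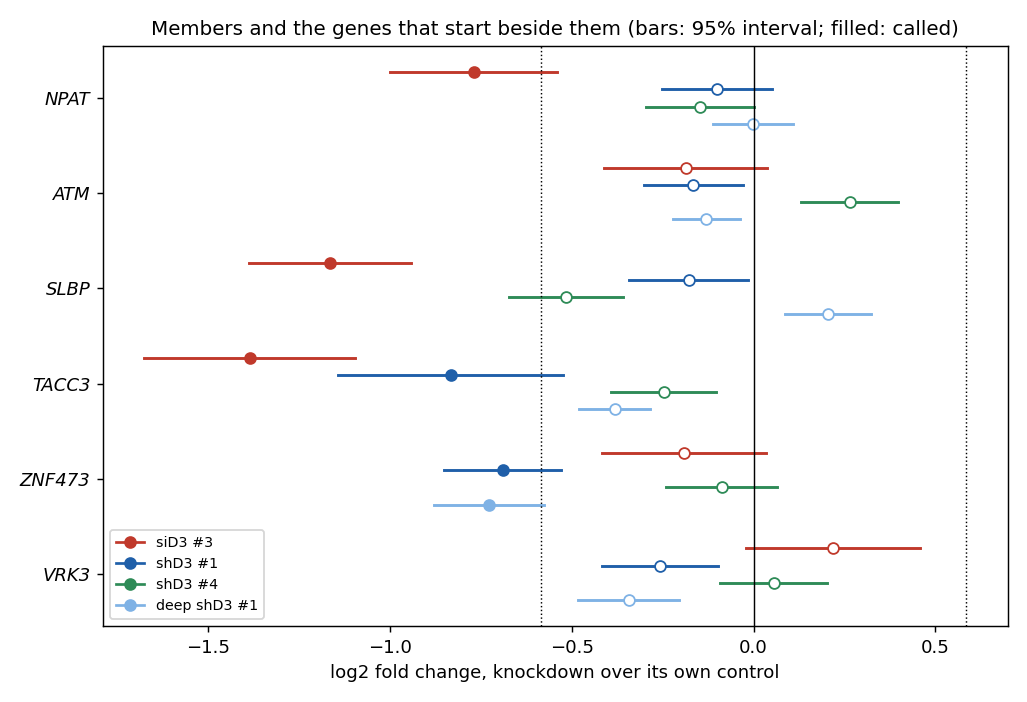
The x axis gives the log2 fold change over control of 3 factors and of the gene that starts beside each on the opposite strand (rows), with 95% intervals as bars, filled points where called and dotted lines at the 1.5-fold limit. In siD3 #3 *NPAT* is at -0.77 and *ATM* at -0.19, while *SLBP* is at -1.17 and *TACC3* at -1.39.

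The genes most like each factor across libraries were taken by Pearson's r of log2 cpm over the 17 first libraries, among 10768 other protein-coding genes, as a description, since the libraries share 6 groups. For *NPAT* they were *E2F8*, a repressor of the E2F family (r = 0.986), *ARL6IP1* (0.983) and *CNKSR2* (0.982). *CASP8AP2* was most like *RTKN2* (0.972), *CEP128* (0.971) and again *E2F8* (0.968), but the siD3 #3 log2 fold change of -3.84 for *E2F8* was far larger than that of either factor. *SLBP* was most like *POP7* (0.974), a subunit of RNase P and MRP, *TUBA1B* (0.970) and *POLD2* (0.968), a DNA polymerase delta subunit. *ERI1* was most like *THOC3* (0.961), *NTMT1* (0.959) and *MTHFD2* (0.958). *LSM11* was most like *ABI1* (0.965), *TMEM156* (0.958) and *GFPT2* (0.953), and *ZNF473* like *KIF5B* (0.974), *TMEM19* (0.974) and *RBM39* (0.973), and for each of these 6 the largest fold change of the 3 first comparisons was that of shD3 #1. *LSM10* had the lowest values, with *RPS16* (0.873), *NSFL1C* (0.847) and *FNIP2* (0.804).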

How the data were processed

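Total RNA of A549 cells was depleted of rRNA and made into directional libraries. The authors aligned reads to GRCh38.p14 with STAR 2.7.10a and deposited counts of reads per gene, not normalised or filtered. Trimmomatic 0.40 is named in the submitters' processing notes. The annotation named by the study is RefSeq, whereas the first table lists Ensembl identifiers and the deep table symbols. Gene positions came from GENCODE release 44, which held 61757 of the 61806 first genes and 27502 of the 42901 deep genes. The tables were normalised and tested apart, so levels are not compared between them.

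Counts were scaled by TMM after edgeR's default filter on low expression. The quasi-likelihood test of edgeR (4.0.16, under R 4.3.3) then set every knockdown against the controls of the same type, with p-values adjusted over all genes tested. Levels are TMM cpm. Differences among the knockdowns were tested in 1 model of the 17 first libraries with type, condition and their interaction. The study's methods used DESeq2, which was run as an alternative (1.42.0). The scripts were tested on simulated data. Labels call replicates biological but do not say that they came from separate cultures, so p-values measure the spread between these samples. The study states 3 replicates per condition, and siControl has 2 here.

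The members, the 9 other lists and the motifs were chosen with earlier results of these data known. The text names the members, *THUMPD3*, *RNU7-1*, genes that start within 1000 bases of a member on the other strand, the 3 genes most like each member, and of each list the genes called alike in all 3 first comparisons (at most 5) and those with the lowest and highest mean change. Other genes named in the lists were chosen after their values were seen, being the called genes of the smaller lists.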

Additional observations from a re-analysis of the deposited data

Results flagged for a closer look

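The effect of the knockdown differed among siD3 #3, shD3 #1 and shD3 #4 for 6 of the 7 factors, by edgeR's quasi-likelihood F test of the interaction over all genes. That test was passed by 52.4% of the 18672 genes tested. The adjusted p was 8.75e-06 for *SLBP*, with log2 fold changes of -1.17, -0.18 and -0.52 in siD3 #3, shD3 #1 and shD3 #4. It was 4.69e-05 for *NPAT* (-0.77, -0.10 and -0.15) and 0.000685 for *CASP8AP2* (-0.89, -0.21 and -0.17), where the siRNA gave the lowest values. It was 0.000119 for *ZNF473* (-0.19, -0.69 and -0.09) and 0.00131 for *LSM11* (0.17, 0.77 and -0.09), where shD3 #1 stood apart. For *ERI1* it was 0.00236 (-0.63, -0.21 and -0.67), where shD3 #1 had the smallest change. The siRNA and shRNA cells also differed in the day of harvest, 5 against 6, and in the residual *THUMPD3* level, 17.1% of control in siD3 #3 against 51.1% in shD3 #1 and 31.4% in shD3 #4, and these cannot be told apart from the knockdown type.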

How the results depend on the processing

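Of 378 alternative values of the members' log2 fold changes, 359 had the same outcome, called or not called. A call was lost in 16 and gained in 3, and 9 changed sign, none of them called. Most of the 378 belong to values that were not called at the start, to which the stricter limits could not add a call, so the 359 is no measure of how well calls held. With a log2 threshold of 1, 0 members were called in shD3 #1, 0 in shD3 #4, 1 in siD3 #3 (*SLBP*) and 0 in deep shD3 #1. When the fold was tested against the 1.5-fold limit (glmTreat), 0, 0 and 1 were called in shD3 #1, shD3 #4 and siD3 #3. Leaving out a replicate gave 1 to 2 members in shD3 #4 and 1 to 2 in deep shD3 #1, as given beside *SLBP* and *LSM11*, and 2 to 2 in shD3 #1 and 3 to 4 in siD3 #3. With at least 10 counts in every library, *ERI1* in siD3 #3 was at -0.58 and not called. The cause of these changes was not tested beyond the stricter limits themselves. Differences among knockdowns held for 6 members under all 22 alternatives run. The correlation of same-numbered deviations from the group means ran from -0.11 to 0.14, which gave no sign of pairing by replicate number. Samples of different number were not compared, and groups hold 2 or 3 libraries, so pairing is not excluded. With a replicate block 4, 2, 1 and 1 members were called in siD3 #3, shD3 #1, shD3 #4 and deep shD3 #1, and 6 differed among knockdowns, so no count moved. *LSM10* had the fewest counts, and its intervals limit what can be said of it.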
